A study of Mus musculus with 10 samples.

Results

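Vascular endothelial markers are genes whose transcripts come chiefly from the cells lining blood vessels. The 10 genes described here were taken by name from the table of protein-coding gene counts: Pecam1, Cdh5, Kdr, Flt1, Tek, Tie1, Vwf, Emcn, Cldn5 and Plvap, each 1 entry among 22740. All 10 held counts in each of the 10 libraries and passed the filter on low counts, which kept 13731 genes.

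Endothelial cells form the inner wall of arteries, capillaries and veins. They are held together by adherens junctions, whose endothelial cadherin is the Cdh5 product, and by tight junctions that contain claudins such as Cldn5. Their growth and survival depend on vascular endothelial growth factors (VEGFs), read by the receptors Kdr and Flt1, and on angiopoietins, read through Tek and its partner Tie1. Carcinomas recruit vessels from the surrounding stroma, and in the oesophagus these vessels run in the connective tissue and muscle layers beneath a squamous epithelium.

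The libraries were made from the oesophagus of C57BL/6 mice exposed to 4-NQO (4-nitroquinoline 1-oxide, a DNA-damaging carcinogen that induces squamous tumours), so the controls carried the carcinogen as well. In the Grhl3 KO group, 5 libraries came from mice lacking Grhl3, an epithelial transcription factor of the grainyhead-like family. The wild-type group held 5 libraries. The title of the series speaks of conditional knockouts and the column names of the KO libraries carry the term L2Cre, but the cells in which the recombinase acts, the age and the sex of the mice were not given in the sources used here. Tumour tissue is the label of the Grhl3 KO libraries and oesophageal tissue that of the wild type, while the design text describes tumours in both, so genotype and tumour content cannot be told apart. Each library is named by its group and its sample number, and no mouse contributed to more than 1 library as far as the labels say.

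The libraries held 15.3 to 32.9 M counts each (M for mega). Grhl3 transcripts were present in both groups, at 222 ± 66.8 CPM (counts per M after TMM scaling; SD, n = 5) in the Grhl3 KO group and 207 ± 112 (SD, n = 5) in wild type, with a log2 difference (log2 fold change, Grhl3 KO minus wild type) of 0.11 (SE 0.35, edgeR adjusted p = 0.979). The total over the whole gene does not show whether the deleted part is missing, so the genotype labels were taken as given. Wild-type libraries 1528 and 1555 held at most 0.0539 CPM of each of the 4 Y-linked genes Kdm5d, Uty, Ddx3y and Eif2s3y, and wild-type library 1561 held 7.95 to 29.1 CPM. For each of these genes library 1561 was below every one of the other 7 libraries, which ran from 20.6 to 75.6 CPM. All 5 Grhl3 KO libraries were among those 7, so Y-linked levels were not balanced between the groups. Libraries 1528, 1555 and 1561 are also the 3 whose sample numbers do not start with 10. Results for the members are therefore given with and without these 3.

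Before the levels, the sequence upstream of 4 members is shown, because these are the receptor genes Tek, Kdr and Flt1 and the junction gene Cldn5 whose RefSeq start (GRCm38.p6) lay within 5 bases of the start in the GENCODE annotation. Each window holds the 250 bases before the start, on the gene's own strand. Capitals mark the letters GGAA or their reverse complement TTCC, the core bound by ETS factors, a family with known roles in endothelial gene regulation. The windows are chr4:94739039-94739288 on the plus strand for Tek, chr5:75978456-75978705 on the minus strand for Kdr, chr5:147726012-147726261 on the minus strand for Flt1 and chr16:18776597-18776846 on the plus strand for Cldn5.
Tek: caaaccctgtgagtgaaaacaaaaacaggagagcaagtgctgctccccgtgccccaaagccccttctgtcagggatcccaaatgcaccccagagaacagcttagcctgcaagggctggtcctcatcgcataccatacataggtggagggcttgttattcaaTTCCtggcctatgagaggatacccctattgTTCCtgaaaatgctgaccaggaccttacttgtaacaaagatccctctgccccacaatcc
Kdr: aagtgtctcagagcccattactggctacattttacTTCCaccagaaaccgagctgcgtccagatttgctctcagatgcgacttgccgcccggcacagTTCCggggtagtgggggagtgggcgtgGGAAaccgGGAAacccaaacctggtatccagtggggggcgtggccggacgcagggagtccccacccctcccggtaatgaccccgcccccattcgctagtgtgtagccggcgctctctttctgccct
Flt1: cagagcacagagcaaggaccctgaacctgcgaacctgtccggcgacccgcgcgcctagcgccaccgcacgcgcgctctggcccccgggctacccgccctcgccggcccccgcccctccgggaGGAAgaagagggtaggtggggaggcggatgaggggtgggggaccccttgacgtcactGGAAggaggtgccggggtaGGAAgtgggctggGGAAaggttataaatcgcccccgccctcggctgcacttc
Cldn5: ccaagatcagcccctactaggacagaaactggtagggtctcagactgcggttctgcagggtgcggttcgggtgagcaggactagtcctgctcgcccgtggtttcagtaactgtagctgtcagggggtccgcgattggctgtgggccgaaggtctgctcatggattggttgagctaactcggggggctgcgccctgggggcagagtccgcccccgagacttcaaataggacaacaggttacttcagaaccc

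RefSeq start windows were found for 6 of the 10 members. Those for Pecam1, Cdh5, Vwf and Plvap were not among them. The ETS core matched 2 times in Tek, 4 times in Kdr, 4 times in Flt1, 4 times in Emcn and 7 times in Tie1, and it was not in the Cldn5 window. This short core occurred in 93.4% of 32851 upstream windows of the same length, with a median of 3 matches, so its presence in 5 of 6 members was near the background. The GATA motif AGATAA (reverse complement TTATCT) was in 0 of the 6 windows and in 9.99% of all windows. The TATA motif TATAAA (reverse complement TTTATA) was in the Flt1 window alone among the 6 and in 12.4% of all windows. A match describes the letters and is not a binding site.

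All 10 members were detected in every library, with 18 to 1239 counts, and none differed between Grhl3 KO and wild type beyond the spread between libraries. By edgeR's quasi-likelihood test with Benjamini-Hochberg adjustment, 0 of the 10 had an adjusted p under 0.05, against 0.0801% of the 13731 genes tested (11 genes). The groups overlapped for each of the 10, whereas 1.35% of all genes tested had groups that did not overlap. At an unadjusted p under 0.05 the members also gave 0, against 983 genes (7.16%) of all tested, and neither DESeq2 nor limma voom called a member. In bulk RNA, fewer endothelial cells and less RNA per endothelial cell cannot be told apart.

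The junction and adhesion genes come first. Pecam1 encodes the adhesion molecule CD31 at endothelial cell borders (chr11:106654217-106750628, minus strand, GRCm38, as for every gene position here). In Grhl3 KO libraries 1026, 1027, 1035, 1036 and 1043 it stood at 26.0, 33.3, 35.8, 31.8 and 39.6 CPM, and in wild-type libraries 1028, 1048, 1528, 1555 and 1561 at 51.7, 31.0, 25.2, 19.1 and 35.0 CPM. The highest and the lowest of the 10 values were both wild type, and every Grhl3 KO value lay between them. The means were 33.3 ± 5.04 and 32.4 ± 12.3 CPM (SD, n = 5 each), a log2 difference of 0.04 (SE 0.23, 95% limits -0.47 to 0.55, edgeR adjusted p = 0.989).

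Cdh5, or VE-cadherin (chr8:104101625-104144511, plus strand), read 14.5, 19.2, 21.9, 19.7 and 21.0 CPM in the Grhl3 KO libraries and 27.5, 15.8, 12.4, 9.43 and 19.7 CPM in the wild-type libraries, in the same order. It followed Pecam1, with library 1028 at the top and 1555 at the bottom. Its log2 difference was 0.18 (SE 0.25, 95% limits -0.37 to 0.74, edgeR adjusted p = 0.942).

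Cldn5, the endothelial tight-junction claudin (chr16:18776847-18778262, plus strand), was low, at 2.08, 1.95, 2.89, 2.36 and 3.04 CPM in the Grhl3 KO group and 5.89, 0.948, 1.63, 2.64 and 2.02 CPM in wild type. The 2 ends of the wild-type range again enclosed every Grhl3 KO value. Library 1048 held 18 counts of Cldn5, with a 95% exact Poisson interval of 0.562 to 1.50 CPM, and library 1028 held 125 counts, with an interval of 4.91 to 7.02 CPM. These intervals cover counting error only. The log2 difference of -0.10 (SE 0.42, 95% limits -1.02 to 0.83, edgeR adjusted p = 0.984) had the widest limits of the 10 members.

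Plvap, which forms the diaphragms of fenestrae and caveolae (chr8:71497765-71511752, minus strand), read 25.3, 31.8, 34.1, 31.4 and 36.2 CPM in the Grhl3 KO group and 47.8, 27.1, 28.5, 14.0 and 34.5 CPM in wild type. The mean was 31.8 ± 4.10 CPM against 30.4 ± 12.3 CPM (SD, n = 5 each), and the log2 difference was 0.06 (SE 0.26, edgeR adjusted p = 0.982). Emcn, a sialomucin of capillaries and veins (chr3:137341067-137432185, plus strand), read 10.3, 13.9, 16.3, 15.6 and 13.4 CPM in the Grhl3 KO group and 22.7, 12.2, 16.4, 7.92 and 16.1 CPM in wild type. Both surface proteins had their highest value in library 1028 and their lowest in 1555. For Emcn the log2 difference was -0.12 (SE 0.24, edgeR adjusted p = 0.963).

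**Figure D1:**
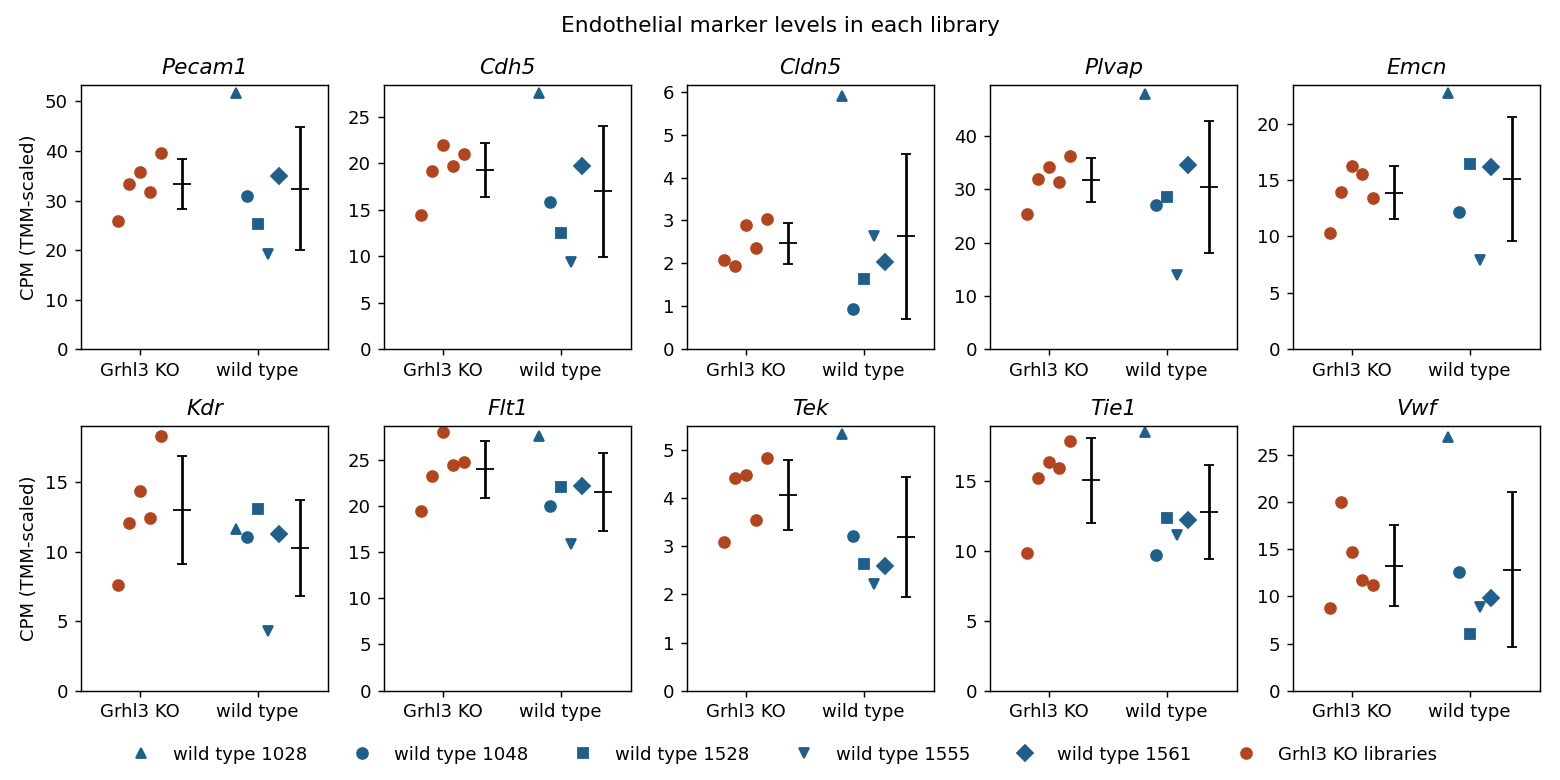
Level of each member in CPM (y axis, from 0, own scale per gene) in the 5 Grhl3 KO and 5 wild-type libraries; bars give the mean ± SD. Wild-type library 1028 (upward triangle) was the highest of 10 for 8 members and wild-type library 1555 (downward triangle) the lowest for 7.

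Among the VEGF receptors, Kdr (VEGFR2, the main signalling receptor; chr5:75932827-75978458, minus strand) read 7.61, 12.1, 14.4, 12.4 and 18.3 CPM in Grhl3 KO. In wild type it read 11.6, 11.1, 13.1, 4.26 and 11.2 CPM. The 4 other wild-type libraries lay between 11.1 and 13.1 CPM, and library 1555 lay apart from them with 79 counts (95% exact Poisson interval 3.37 to 5.31 CPM). The means of 13.0 ± 3.89 and 10.2 ± 3.44 CPM (SD, n = 5 each) gave a log2 difference of 0.34 (SE 0.30, 95% limits -0.31 to 0.99, edgeR adjusted p = 0.880), and without library 1555 it was 0.13. It was 0.38 without library 1028 and 0.20 with the 10xx libraries alone.

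Flt1 (VEGFR1, which binds VEGF and also has a soluble form; chr5:147561604-147726011, minus strand) read 19.4, 23.2, 28.0, 24.5 and 24.7 CPM in the Grhl3 KO group and 27.5, 20.0, 22.0, 15.8 and 22.2 CPM in wild type. Its SD of log2 levels was the smallest of the 10 members in both groups. Its log2 difference was 0.16 (SE 0.15, 95% limits -0.17 to 0.48, edgeR adjusted p = 0.889), the narrowest limits among them. With the 10xx libraries alone it was 0.015. Counts per gene do not separate the soluble from the full-length form.

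The angiopoietin receptor Tek (Tie2; chr4:94739289-94874976, plus strand) read 3.08, 4.42, 4.48, 3.55 and 4.84 CPM in the Grhl3 KO group and 5.33, 3.21, 2.64, 2.21 and 2.59 CPM in wild type. The 4 wild-type values outside library 1028 lay between 2.21 and 3.21 CPM, and the Grhl3 KO values between 3.08 and 4.84. The log2 difference of 0.35 (SE 0.27, 95% limits -0.24 to 0.93, edgeR adjusted p = 0.847) was the largest of the 10 members, and without library 1028 it was 0.61 (edgeR adjusted p = 0.452). Without library 1555 it was 0.23 (edgeR adjusted p = 0.869), and with the 10xx libraries alone it turned to -0.066 (edgeR adjusted p = 0.979).

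Tie1, the partner receptor that modulates Tek signalling (chr4:118471191-118490061, minus strand), read 9.88, 15.2, 16.4, 16.0 and 17.9 CPM in the Grhl3 KO group and 18.5, 9.74, 12.4, 11.2 and 12.2 CPM in wild type. As for Tek, 4 of the Grhl3 KO libraries lay above 4 of the wild-type libraries, with 1026 and 1028 as the exceptions. The log2 difference was 0.23 (SE 0.20, 95% limits -0.20 to 0.67, edgeR adjusted p = 0.874), and 0.40 without library 1028 (edgeR adjusted p = 0.532). Without library 1555 it was 0.18, and with the 10xx libraries alone 0.095.

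Vwf, the clotting glycoprotein stored in endothelial granules (chr6:125546774-125686679, plus strand), read 8.74, 20.0, 14.7, 11.7 and 11.2 CPM in the Grhl3 KO group and 26.9, 12.6, 6.01, 8.84 and 9.84 CPM in wild type. Library 1028 held the highest value and library 1528 the lowest. The log2 difference was 0.05 (SE 0.37, 95% limits -0.78 to 0.88, edgeR adjusted p = 0.989). Platelets and megakaryocytes also make Vwf. Of 8 markers of those cells 5 passed the filter and 0 were called, and their summed level was 35.7 to 172 CPM in the Grhl3 KO group and 39.5 to 301 CPM in wild type, most of it from the platelet chemokine Ppbp in the libraries at the top. Their part in the Vwf level was not tested.

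Across the 10 members, 8 had a fitted log2 difference above 0 and 2, Emcn and Cldn5, below 0, with a median of 0.11. Over all genes tested, 49.7% were above 0 and the median was -0.00. Neither the count nor the median held across libraries. Without wild-type library 1028 the count was 10 and the median 0.39, without wild-type library 1555 they were 5 and -0.02, and with the 7 libraries numbered from 1026 to 1048 (5 Grhl3 KO, 2 wild type) they were 3 and -0.20. In these fits, too, 0 members were called.

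**Figure D2:**
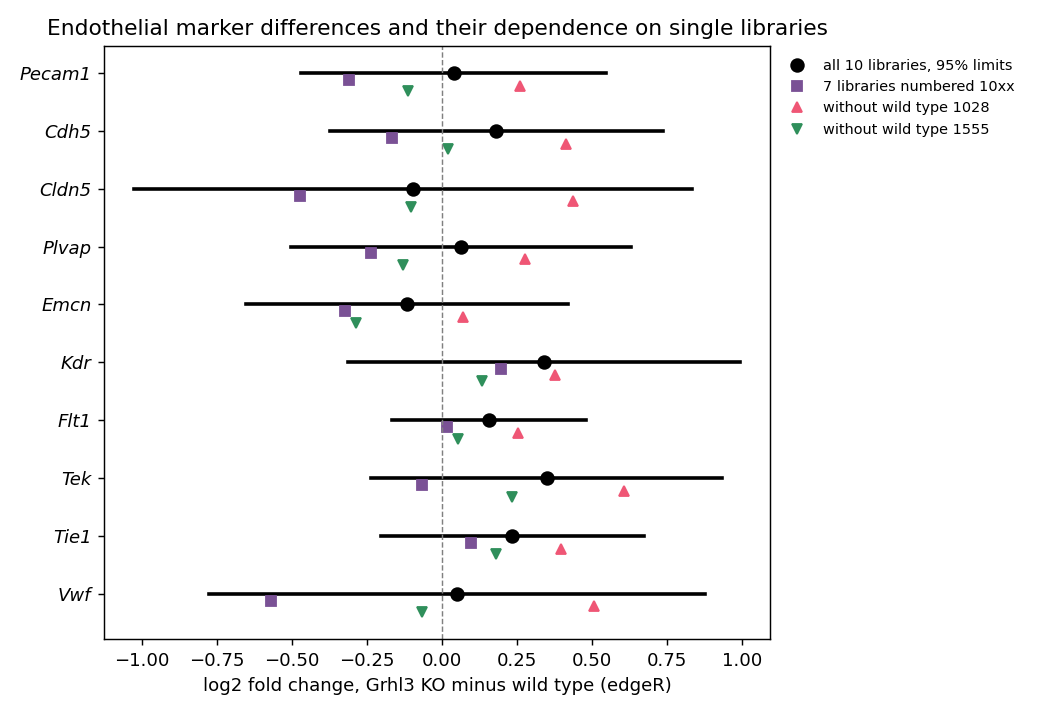
Log2 fold change of each member, Grhl3 KO minus wild type (x axis; edgeR), with 95% limits over all 10 libraries (black) and the estimate after leaving out wild-type library 1028, wild-type library 1555 or the 3 libraries outside the 10xx sample numbers. All 10 black intervals span 0, and leaving out library 1028 moved each estimate up.

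What the members shared was their order over libraries. Centred on each gene's own mean, their mean log2 level was 0.66 in wild-type library 1028 and -0.65 in wild-type library 1555, the 2 ends of all 10 libraries. Wild-type libraries 1048, 1528 and 1561 stood at -0.24, -0.24 and -0.03. The Grhl3 KO libraries stood at -0.32, 0.15, 0.28, 0.10 and 0.28 in the order given above. All 10 members were above their own mean in wild-type library 1028 and in Grhl3 KO library 1035, and all 10 were below it in Grhl3 KO library 1026. When libraries were scaled by total counts alone, library 1028 was the highest for 7 members in place of 8, and library 1555 remained the lowest for 7.

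Summed over the 10 members, the level was 127, 175, 189, 169 and 190 CPM in the Grhl3 KO group and 245, 144, 140, 95.4 and 165 CPM in wild type. The sums averaged 170 ± 25.7 and 158 ± 55.1 CPM (SD, n = 5 each). The highest wild-type sum was 2.57 times the lowest, against 1.50 times within Grhl3 KO.

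**Figure D3:**
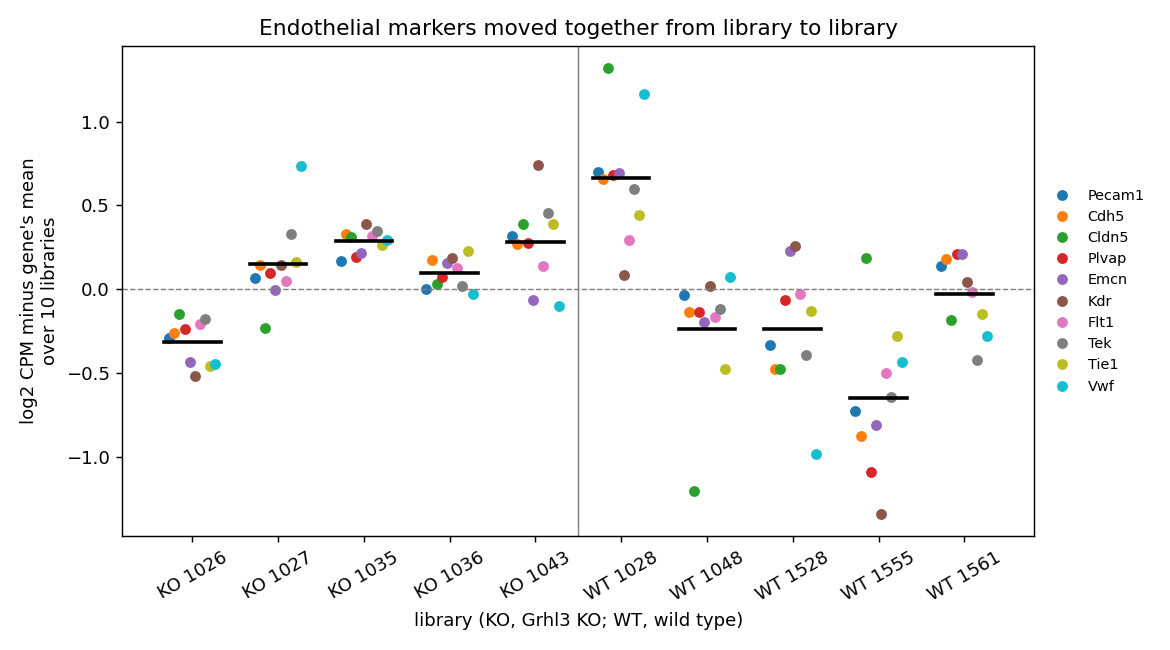
Log2 CPM of each member minus that gene's mean over the 10 libraries (y axis), by library (x axis); points are genes and the black bar is their mean. The bar is highest in wild-type library 1028 at 0.66 and lowest in wild-type library 1555 at -0.65.

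The spread of log2 levels was larger in wild type than in Grhl3 KO for 10 of the 10 members, with a median SD of 0.58 against 0.26. Over all genes tested it was larger in wild type for 67.0%, with median SDs of 0.28 and 0.22. Without library 1028, 7 of the 10 members and 8343 of the 13731 genes tested had the larger wild-type spread. Without libraries 1028 and 1555 the wild-type SD was the larger for Pecam1, Cdh5, Vwf and Cldn5. It was then the smaller for Kdr (0.13 against 0.46), Flt1 (0.084 against 0.19), Tek, Tie1, Emcn and Plvap. That second omission was not run over all genes. The ratio of the highest to the lowest wild-type library reached 6.22 for Cldn5, 4.48 for Vwf and 3.43 for Plvap. In Grhl3 KO the same ratio ran from 1.43 for Plvap to 2.41 for Kdr.

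Other tissue markers differed in the same libraries. The summed level of 9 squamous epithelium markers was 101374 CPM in wild-type library 1028 and 39338 to 60309 CPM in the other 9. The 12 leukocyte markers summed to 9486 CPM in library 1028 and 9356 CPM in library 1555, the 2 ends of the endothelial order, against 1425 to 5060.5 CPM elsewhere. This sum was mostly S100a8, which squamous epithelium also makes, and without it the leukocyte markers ran from 155 to 222 CPM in the Grhl3 KO group and from 167 to 224 CPM in wild type. The 12 skeletal muscle markers, all of which were fitted higher in Grhl3 KO and none called, summed to 717 to 5203.5 CPM in the Grhl3 KO group and 1165 to 2610 CPM in wild type. No squamous or muscle marker of these lists was at 0 in all libraries. With the squamous or the muscle markers as a covariate, 0 members were called and the members' median log2 difference was 0.16 and 0.13.

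Pairs of members were correlated over the 10 libraries on log2 CPM. These points share library scaling and tissue composition. All 45 pairs had a Pearson r above 0, with a median of 0.73 and a range of 0.05 to 0.97, and Spearman's rho had a median of 0.67. After Benjamini-Hochberg adjustment over the 45 pairs, 29 passed 0.05 by a two-sided permutation test of r and 16 by one of rho. Pairs of other genes were not examined, so whether these counts exceed those of other genes was not tested. Without the 2 libraries farthest from the median of the first gene, the median r was 0.64 and 40 pairs stayed above 0. Within the 7 libraries numbered 10xx the median r was 0.78.

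Pecam1 and Cdh5 were the closest pair, with r = 0.97 and rho = 0.98 (permutation, adjusted p = 0.0009 for both, 1 of 45 pairs), and r = 0.93 without libraries 1555 and 1028. The VEGF receptors Kdr and Flt1 gave r = 0.83 and rho = 0.77 (permutation, adjusted p = 0.0115 and 0.0394). Its r was 0.39 without wild-type 1555 and Grhl3 KO 1026, the libraries with the least Kdr. It was 0.75 without libraries 1028 and 1555, and 0.65 within the 10xx libraries. The angiopoietin receptors Tek and Tie1 gave r = 0.79 and rho = 0.79 (permutation, adjusted p = 0.0232 and 0.0328), and r = 0.73 without libraries 1028 and 1555.

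Cldn5, Vwf and Kdr followed the others least. Cldn5 had a mean r of 0.45 with the other 9 members, Vwf 0.59 and Kdr 0.60, against 0.79 for Cdh5 and Pecam1. Kdr with Cldn5 was the lowest pair, with r = 0.05 and rho = 0.26 (permutation, adjusted p = 0.867 and 0.494). In wild-type library 1555 Kdr was at its lowest while Cldn5 was above its own mean, and in wild-type library 1048 Cldn5 was at its lowest while Kdr was near its mean.

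**Figure D4:**
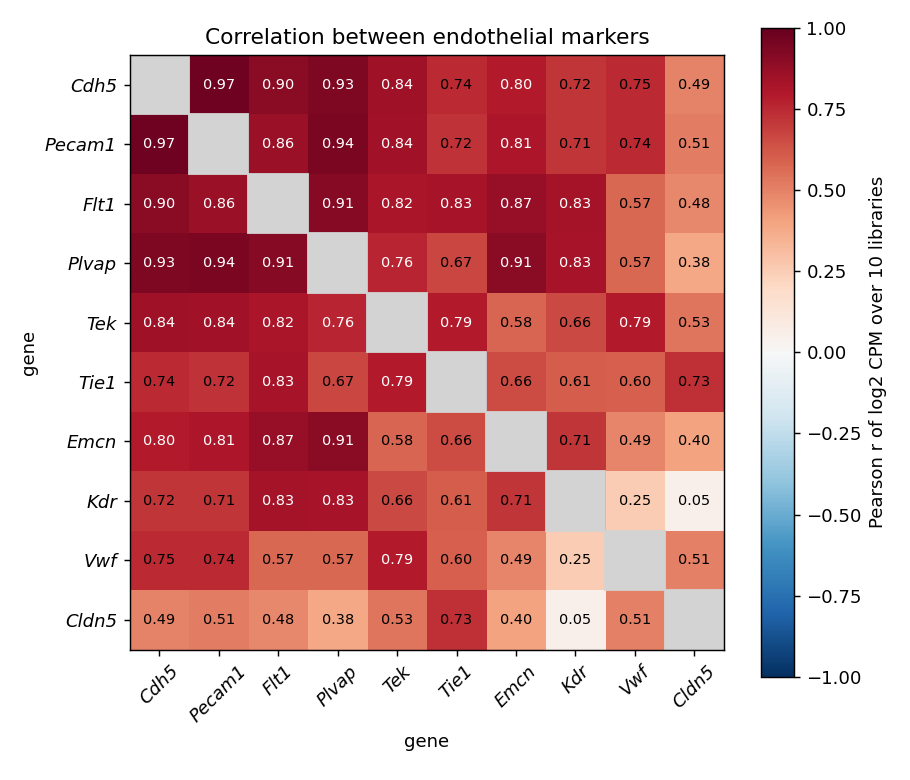
Pearson r between each pair of members over 10 libraries on log2 CPM (colour and number), with genes ordered by their mean r. The block from Cdh5 to Tek lies between 0.76 and 0.97, and the Cldn5 column reaches down to 0.05 with Kdr.

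Levels of different genes were compared per kilobase of exon. The length was the union of all annotated exons of a gene, and the order depends on that choice. Lengths of single transcripts were not tried. Plvap was the most abundant member at 15.6 ± 4.37 CPM per kb (SD over 10 libraries), above Pecam1 at 5.27 ± 1.43 CPM per kb in 10 of 10 libraries. Pecam1 exceeded Cdh5, at 4.31 ± 1.24 CPM per kb, in 10 of 10 libraries. Plvap stood at percentile 76.5 of the genes tested, Pecam1 at 48.9 and Cdh5 at 43.6.

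Below Cdh5 the order per kilobase was Tie1 at 2.83, Emcn at 2.68, Cldn5 at 1.80, Flt1 at 1.68, Kdr at 1.29, Vwf at 0.812 and Tek at 0.771 CPM per kb. Neighbours in this order were not all apart: Tie1 was above Emcn in 6 of 10 libraries, Cldn5 above Flt1 in 4 and Vwf above Tek in 5. Tek lay at percentile 14.3 of the genes tested. Within families, Flt1 was 1.37 times Kdr per kb on average (range 0.902 to 2.49 over libraries), and Tie1 was 3.73 times Tek (2.91 to 4.84). Plvap was 2.94 times Pecam1 (2.29 to 3.54), a narrower range than that of Emcn to Vwf, 2.07 to 8.10 times.

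Set against the mean of the other 9 members in the same library, no member separated the groups. The difference of Grhl3 KO and wild-type means on this log2 scale ran from -0.28 for Emcn to 0.22 for Tek, and the groups overlapped for all 10.

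Other vascular genes were followed in 7 lists, with 95 genes listed and 91 tested. By edgeR 1 was called, Edn1, against 0.0801% of all 13731 genes tested. In Grhl3 KO 56 were fitted higher and 35 lower, with a median log2 difference of 0.06. Over all genes tested 49.7% were fitted higher, with a median of -0.00. Edn1 was also the 1 gene of the 91 whose groups did not overlap, a share no larger than the 1.35% of all genes tested.

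The list of 11 VEGF, angiopoietin and related ligands and co-receptors had 0 calls, 5 genes higher and 6 lower, and a median log2 difference of -0.23. Not all of them act on the receptors above. Over the list, r with the members' mean log2 profile was above 0 for 7 of the 11 genes, with a median of 0.22. Vegfa, the main ligand of Kdr, read 264, 309, 288, 235 and 280 CPM in the Grhl3 KO group and 207, 265, 451, 445 and 240 CPM in wild type. Its lowest value was in library 1028, where the endothelial markers were highest, and 1 of its 2 highest values was in library 1555, where they were lowest. Its correlation with the members' mean profile was r = -0.66 over 10 libraries, given as a description. The log2 difference was -0.23 (SE 0.22, edgeR adjusted p = 0.896). Angpt2, the Tek ligand that vessels release during remodelling, averaged 14.8 ± 4.80 CPM in the Grhl3 KO group and 21.5 ± 6.20 CPM in the wild-type group (SD, n = 5 each; log2 difference -0.53, edgeR adjusted p = 0.724). Angptl4, an angiopoietin-like inhibitor of lipoprotein lipase, had a log2 difference of -0.62 (edgeR adjusted p = 0.792).

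The 20 other pan-endothelial genes tested were the list most like the members over libraries. All 20 had r above 0 with the members' profile, with a median of 0.80, and 10 were fitted higher and 10 lower. Ptprb, the phosphatase that acts on Tek, averaged 16.0 ± 2.46 CPM in the Grhl3 KO group and 11.5 ± 3.43 CPM in the wild-type group (SD, n = 5 each; log2 difference 0.48, SE 0.21, edgeR adjusted p = 0.680). Eng, a co-receptor for transforming growth factor beta, stood at 35.3 ± 6.53 and 28.3 ± 7.46 CPM. Cd34, a sialomucin shared with fibroblasts and progenitor cells, followed the members less (r = 0.23), and its highest value, 129 CPM, was in wild-type library 1528.

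Endothelial transcription factors gave 0 calls among 17, with 11 higher and 6 lower. Their r with the members' profile was above 0 for 12 of the 17, with a median of 0.27. Sox7 averaged 102 ± 18.8 CPM in the Grhl3 KO group and 78.6 ± 12.8 CPM in wild type (log2 difference 0.37, SE 0.15, edgeR adjusted p = 0.643). Klf4, the most abundant per kilobase in this list, is also made by squamous epithelium and read 353 to 885 CPM. Foxc2, known from lymphatic vessels, was at most 2.64 CPM.

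Arterial genes gave 7 higher and 3 lower of 10, capillary and tip-cell genes 6 and 6 of 12, and venous and activated genes 9 and 1 of 10, with 0 calls in each. The venous gene fitted lower was Tll1, a secreted protease, at 2.41 ± 0.837 against 5.58 ± 3.17 CPM (SD, n = 5 each; log2 difference -1.19, edgeR adjusted p = 0.519). The arterial receptor Notch4 had a log2 difference of 0.55 (edgeR adjusted p = 0.692) and the arterial connexin Gja5 one of 0.83 (edgeR adjusted p = 0.731). Aplnr, the apelin receptor, averaged 5.54 ± 1.89 CPM in the Grhl3 KO group and 3.09 ± 0.883 CPM in wild type (log2 difference 0.84, edgeR adjusted p = 0.562). Esm1, a tip-cell proteoglycan, averaged 11.5 ± 4.12 CPM against 18.2 ± 6.63 CPM (log2 difference -0.66, edgeR adjusted p = 0.724). Jag2 and Ephb4 were the most abundant per kilobase of the arterial and the venous list. Both had a negative r with the members, -0.70 and -0.56, unlike most of their lists. Of the arterial genes tested 9 of 10 had r above 0 (median 0.39), and of the venous genes 7 of 10 (median 0.43). The basement membrane collagen Col4a1 read 115 to 209 CPM and had r = 0.85 with the members.

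Edn1, the precursor of the vasoconstrictor endothelin, was higher in Grhl3 KO. It read 17.6, 19.3, 10.9, 21.2 and 18.1 CPM in the Grhl3 KO group and 7.12, 6.37, 4.96, 3.61 and 5.98 CPM in wild type. Every Grhl3 KO value lay above every wild-type value. The means of 17.4 ± 3.88 and 5.61 ± 1.36 CPM (SD, n = 5 each) gave a fitted 3.10-fold difference (log2 difference 1.63, SE 0.22, edgeR adjusted p = 0.0318). Limma voom gave an adjusted p of 0.101 and DESeq2 one of 6.16e-09. The call held under the other scalings, filters and covariates (edgeR adjusted p 0.0211 to 0.0391). It was lost without Grhl3 KO 1027, 1036 or 1043 or wild-type 1528, 1555 or 1561. Over all single omissions the log2 difference was 1.50 to 1.76 (edgeR adjusted p 0.0150 to 0.127). With the 10xx libraries alone the log2 difference was 1.37 (edgeR adjusted p = 0.439). The r of Edn1 with the members' profile was 0.41. Epithelial cells also make Edn1, and its cell of origin was not tested.

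The other 10 genes of that list, which act in clotting and vascular tone, were not called. Procr, the endothelial protein C receptor, read 75.9 to 237 CPM and had r = -0.46 with the members. Of the 11 genes of the list, 7 had r above 0, with a median of 0.16.

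Neighbouring cells of the vessel wall were examined with the same fit. Of 12 pericyte and vascular smooth muscle markers 11 were tested, with 6 higher, 5 lower and 0 called, and their sums ran from 404 to 1162 CPM in the Grhl3 KO group and 374 to 850 CPM in wild type. Rgs5, a pericyte regulator of G-protein signalling chosen after its values were seen, followed the members with r = 0.75, whereas Cspg4, another pericyte marker, gave r = -0.71, and the list's median r was 0.38. Of 8 lymphatic endothelial markers 6 were tested and 0 called, with sums of 15.6 to 50.6 CPM in the Grhl3 KO group and 30.6 to 75.9 CPM in wild type. Much of this was Pdpn, which basal squamous cells also make (12.7 ± 6.96 against 34.2 ± 19.4 CPM, SD, n = 5 each; log2 difference -1.44, edgeR adjusted p = 0.548). Red blood cell markers summed to 39.2 to 76.0 CPM in the Grhl3 KO group and 17.0 to 164 CPM in wild type, lowest in library 1555 and highest in library 1561, with a median r of 0.57 with the members. Fibroblast markers summed to 292 to 770 CPM in the Grhl3 KO group and 331 to 566 CPM in wild type, with 0 of 8 called.

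The 10 genes outside the members whose log2 level was most like the members' mean profile over the 10 libraries were Ldb2 (r = 0.96), S1pr1 (0.95), Nid1 (0.95), Nob1 (0.94), Gpr116 (0.93), Esam (0.92), Arhgap29 (0.92), Darc (0.92), Arv1 (0.91) and Entpd1 (0.89). S1pr1 is a receptor for sphingosine 1-phosphate, Esam an adhesion molecule of endothelial junctions and Nid1 a basement membrane protein. Over all 13721 other genes tested the median r was 0.01, and 63 (0.459%) were above 0.8. Of the 10, 4 were in the vascular lists and 0 were called between the groups.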

How the data were processed

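RNA-seq libraries from 10 mouse oesophagus samples were analysed, 5 per group. The deposited values are whole-number counts per protein-coding gene, which the authors made with featureCounts on GRCm38, per the submitters' processing notes. The extraction kit handles small samples and the library kit keeps strand, per the labels' protocols, and the deposited table is named as reverse-stranded counts. The aligner, the annotation release and the treatment of reads matching several genes were not given in the sources used here. That table has 0 further columns of per-sample values and 0 entries without a gene name. Columns were joined to samples by the sample number in the titles.

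Genes were filtered with filterByExpr (minimum count 10, minimum total 15), scaled by TMM and tested with the robust quasi-likelihood F-test of edgeR 4.0.16 in R 4.3.3, with Benjamini-Hochberg adjustment over all 13731 genes and a threshold of 0.05. CPM uses the TMM-scaled library size, and log2 CPM has a prior count of 2. The code was tested on simulated data. Total counts of 15.3 to 32.9 M (mega) gave 18 to 1239 counts per member and library. P-values of the group tests weigh a difference against the spread between these libraries. Those of the pairs compare a correlation with its values after the libraries were shuffled. DESeq2 1.42.0, limma 3.58.1, other scalings and filters, single omissions, the 10xx libraries and composition covariates were alternatives. Exon lengths and positions come from GENCODE M21 (GRCm38), in which 21919 of 22740 identifiers were found, and promoters from RefSeq (GRCm38.p6). Older symbols in the table (Figf, Eltd1, Gpr116, Darc, Emr1) were matched by identifier.

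The members and lists were chosen with earlier results of these data known. Named genes are all members, Grhl3, any vascular-list gene with an adjusted p under 0.05, the 10 genes most like the members' profile and, per list, the 2 of smallest p and the most abundant per kilobase. Not every gene so named is described, and 1 is not reported here.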

Additional observations from a re-analysis of the deposited data

Results flagged for a closer look

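Kdr in wild-type library 1555, at 4.26 CPM, lay far from the other 4 wild-type libraries: its gap to the nearest of them was 0.771 of the group's whole range, above the critical value of 0.71 for 5 samples. Of the 20 groups of values examined (10 members in each of the 2 groups) it was the 1 that passed, and chance gives about 1 in 20. Without library 1555 the log2 fold change of Kdr was 0.13, against 0.34 with it.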

How the results depend on the processing

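Over 20 alternatives of scaling, tool, filter, samples and covariates, 0 members were called in any, and the median log2 fold change of all genes shifted by -0.02 to 0.01. Genes past the threshold numbered 11, and 130 with DESeq2, 1 with limma voom, 7 without a filter, 1 with the libraries numbered 10xx and 1 to 16 when single libraries were left out. With the 10xx libraries alone, 3 members were higher and the median log2 fold change of the members was -0.20. Pecam1 (-0.31), Cdh5 (-0.17), Tek (-0.066), Vwf (-0.57) and Plvap (-0.24) turned negative. In the same fit Flt1 stood at 0.015, Emcn at -0.32 and Cldn5 at -0.47. Cldn5 turned positive with limma voom (0.13) and with the epithelial covariate (0.050). Leaving out single libraries gave 5 to 10 members higher, a median of -0.024 to 0.39, and log2 fold changes of -0.11 to 0.26 for Pecam1, -0.16 to 0.51 for Vwf, -0.29 to 0.070 for Emcn, -0.31 to 0.44 for Cldn5 and -0.13 to 0.28 for Plvap. The cause was not tested. Cdh5, Kdr, Flt1, Tek and Tie1 stayed above 0 in all single omissions. The median pair correlation was 0.68 to 0.78, and 7 to 10 members had a larger wild-type spread. Both were followed over scalings, single omissions and the 10xx libraries, an addition made after seeing the data. Depth limits Cldn5 and Tek most, with as few as 18 and 41 counts in a library. No paired analysis was possible because the groups share no sample numbers.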

Other observations

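Sele, the inducible endothelial selectin and a gene named by rule, read 0.818, 3.10, 3.81, 2.72 and 2.03 CPM in Grhl3 KO libraries 1026, 1027, 1035, 1036 and 1043 and 0.802, 1.68, 0.0527, 0.0539 and 0.424 CPM in wild-type libraries 1028, 1048, 1528, 1555 and 1561. The groups overlapped, and its log2 fold change of 2.05 (SE 0.74, edgeR adjusted p = 0.568) did not pass the test. Selp, the selectin stored with Vwf and chosen here after its values were seen, read 2.96, 11.1, 20.1, 18.0 and 8.72 CPM in Grhl3 KO and 6.13, 8.95, 2.27, 0.701 and 7.11 CPM in wild type (log2 fold change 1.28, edgeR adjusted p = 0.728). Both selectins were lowest in wild-type libraries 1528 and 1555, the 2 with nearly no Y-linked counts. Sele was barely detected there, at 0.0527 and 0.0539 CPM, and a relation to the Y-linked counts was not tested. In wild-type library 1028, where 8 of the 10 members were highest, neither selectin was.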
